A study of Mus musculus with 6 samples.

Results

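The genes described here encode the extracellular and receptor parts of Wnt signalling: the Wnt ligands, the Frizzled receptors, the co-receptors Lrp5 and Lrp6, the secreted Frizzled-related proteins, the Dickkopf proteins, Wif1 and the R-spondins. Membership goes by gene symbol and uses no measured value, but the rule was set with earlier results of these data known. The rule also takes each gene by its brightest probe over all arrays, a choice that does use the measured intensities. The list comprises 46 genes with 54 probes on the array. Of these, 40 genes passed the filter on dim probes and were tested among 18853 genes in all. The samples were whole testes of male mice aged 5 months. Of these, 3 testes came from mice called AROM+, in which a transgene over-expressed aromatase, which makes oestrogens from androgens. The other 3 testes came from wild type (WT) mice. Both genotypes were on the C57BL/6 background. Each array was hybridised with RNA from 1 testis. The promoter that drives the transgene and the number of founder lines are not given in the sources used here.

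Wnt proteins are secreted, lipid-carrying ligands that bind Frizzled receptors on nearby cells. Together with Lrp5 or Lrp6, a bound Frizzled stabilises β-catenin, which then acts on genes with the Tcf and Lef factors; a separate branch works through Frizzled and Ror2 without β-catenin and orients cells in a tissue. Frizzled-related proteins and Wif1 bind the ligands outside the cell, Dickkopf proteins block the Lrp co-receptors, and R-spondins raise the amount of Frizzled at the surface by holding back the ubiquitin ligases Rnf43 and Znrf3. In the gonads the pathway is best known for the part of Wnt4 and Rspo1 in ovarian development, and Dkkl1 for its abundance in developing sperm cells.

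Levels below are log2 intensities set against the 75th percentile of each array. Differences are AROM+ minus WT on the log2 scale, given ± the standard error (SE) that limma estimates, with 3 testes per group. Adjusted p-values are those of limma after Benjamini-Hochberg adjustment over all 18853 genes, and a gene is called higher or lower at an adjusted p under 0.05. Levels of different genes come from different probes and are not set against each other. The labels give 1 testis per array and replicate numbers without further detail. The p-values therefore weigh each difference against the spread between these testes, as limma estimates it.

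Several Frizzled receptor genes and a small set of secreted modulators were higher in AROM+ testes, and Wnt ligand genes were called in both directions at shares near those of all genes. Of the 40 genes tested, 12 were called higher, 7 lower and 21 neither. Across all genes tested, 19.9% were called higher and 32.6% lower (52.5% either way), so the share called higher was above that of the array and the share called lower was below it. That balance of all genes moves with the scaling: 3747 genes were called higher and 6142 lower, against 4098 and 4014 with quantile normalization. The 3 AROM+ values lay above the 3 WT values in 13 members and below them in 10, against 23.3% and 40.2% of all genes. Among called members, 7 were over 2-fold higher, against 6.85% of all genes, and 0 were over 2-fold lower, against 1.32%. The median difference of the members was 0.23, against −0.14 over all genes. Of the 40 members, 24 had an unadjusted p under 0.05. The 37 that were well above background on all 6 arrays had differences from −0.70 for Wnt3a to 3.09 for Fzd2. The other 3 passed the filter only through the group in which they read higher. Sfrp4 and Rspo3 passed through AROM+, and both are among the 12 called higher and the 7 over 2-fold. Dkk1 passed through WT. The count of lower members was 2 without WT replicate 1 and also 2 without WT replicate 3. Lower calls over all genes fell as well, from 6142 to 3935 and 3816 in these fits.

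**Figure D1:**
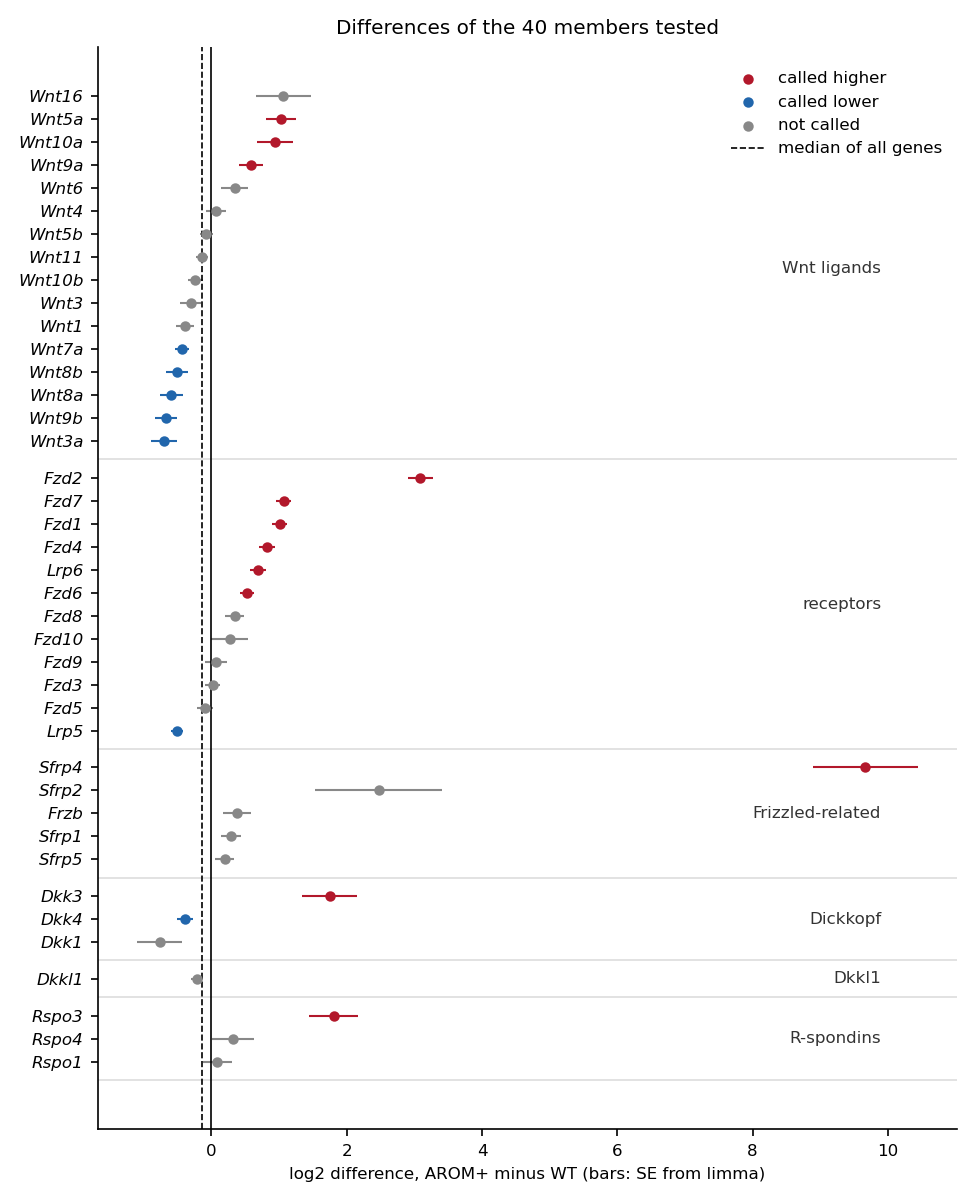
Log2 difference (x axis, AROM+ minus WT) of each of the 40 members tested, by role and from highest to lowest within a role; points are limma estimates, bars their SE, and the dashed line is the median of all genes, −0.14. Receptors lie mostly right of 0, Wnt ligands lie on both sides, and Sfrp4, fitted at 9.67 against a WT group below background, lies far from the rest.

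Between 76.6% and 77.9% of spots were well above background on AROM+ arrays and between 77.1% and 80.6% on WT arrays. The 75th percentile of intensity was 4268 to 5431 on AROM+ arrays and 3696 to 4496 on WT arrays. All 6 arrays lay on 1 slide, with AROM+ in one row and WT in the other, so slide position and genotype cannot be told apart. In whole testes, fewer cells of a type and less RNA per cell cannot be told apart. Markers of several cell types were called, to be read beside the 19.9% of all genes called higher and the 32.6% called lower. A count such as 2 of 8 called higher lies near the first of these shares. For macrophages, 7 of 8 markers were called higher and 1 lower, and their summed level on the linear scale, in multiples of the array's 75th percentile, was 27.2 to 44.4 in AROM+ testes and 10.6 to 15.2 in WT testes. Fibroblast markers were called higher in 6 of 8 and lower in 1, with sums of 20.4 to 29.2 in AROM+ and 10.9 to 14.7 in WT, and endothelial markers were called higher in 5 of 8 and lower in 1 (5.16 to 6.21 in AROM+, 4.41 to 4.98 in WT). Leydig cell markers were called higher in 4 of 7 (33.7 to 47.7 in AROM+, 18.9 to 34.95 in WT; Insl3 had no probe), and spermatid markers were called lower in 5 of 8 (163.9 to 173.1 in AROM+, 192.7 to 267.2 in WT). Of 8 seminal vesicle markers, 4 were tested, 2 were called higher and 1 lower, with sums of 17.65 to 24.4 in AROM+ and 2.18 to 3.02 in WT, while Svs1 and Pate4 were not above background on any array. Of 8 adipocyte markers, 7 were tested, 3 were called higher and 3 lower (7.17 to 9.72 in AROM+, 5.84 to 6.63 in WT), and Lep was not above background on any array. Epididymal and efferent duct markers were called higher in 1 and lower in 1 of 4 tested (0.623 to 0.841 in AROM+, 0.848 to 0.963 in WT), and Adam7, Lcn5 and Lcn8 were not above background on any array. Peritubular markers were called higher in 2 of 8 and lower in 1 (21.3 to 23.4 in AROM+, 22.3 to 25.6 in WT), Sertoli cell markers higher in 2 of 8 (33.0 to 45.0 in AROM+, 33.7 to 40.01 in WT) and spermatogonial markers higher in 2 of 8 and lower in 1 (8.38 to 9.29 in AROM+, 7.21 to 8.76 in WT). Mesothelial markers were called lower in 2 of 5 tested (0.912 to 1.02 in AROM+, 1.01 to 1.06 in WT), and Upk3b and Upk1b were not above background on any array. These sums weigh the brightest probes most, such as Svs5 (called higher) among seminal vesicle markers and Vwf (not called) and Kdr (called lower) among endothelial ones. The part of any of these cell types in the Wnt results was not tested.

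Of the 19 Wnt ligand genes on the array, 16 were tested: 3 were called higher, 5 lower and 8 neither, with a median difference of −0.18. These counts are near the shares of all genes, 19.9% higher and 32.6% lower, and the median is near −0.14, that of all genes. Wnt5a, a ligand known mostly for signalling without β-catenin, was higher in AROM+ testes. Its levels were 0.26, −0.25 and −0.65 in AROM+ testes and −1.30, −1.12 and −1.29 in WT testes. The groups did not overlap, and the difference was 1.03 ± 0.22, or 2.04-fold (adjusted p = 0.0105). The probe that measured it lies on chr14:29336664-29336723 (plus strand, NCBI37/mm9, as are all coordinates here). Its first 30 bases are shown because Wnt5a is the ligand whose rise kept its call under every other setting tried.
Wnt5a probe, first 30 bases: cctaacccagaggttaccagcctggttttg

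The other 2 ligands called higher were Wnt10a, a ligand needed for teeth and hair, and Wnt9a, a ligand of joint formation. Wnt10a had levels of −4.42, −4.69 and −5.14 in AROM+ testes and −5.35, −5.54 and −6.19 in WT testes. The groups lay close together without overlap, with a difference of 0.94 ± 0.27 (1.92-fold, adjusted p = 0.0247). Wnt9a had levels of −2.49, −2.82 and −2.32 in AROM+ testes and −3.16, −2.89 and −3.34 in WT testes. AROM+ replicate 2 and WT replicate 2 nearly met, and the difference was 0.59 ± 0.17 (adjusted p = 0.0271). Both calls were lost in some fits that left out 1 testis and so held fewer arrays. In those fits the difference was 0.69 to 0.91 for Wnt10a and 0.47 to 0.57 for Wnt9a. Wnt10a was not called without AROM+ replicate 1 (adjusted p = 0.0661), AROM+ replicate 2 (0.0627) or WT replicate 3 (0.0591). Wnt9a was not called without AROM+ replicate 1 (0.0666), AROM+ replicate 3 (0.0691), WT replicate 1 (0.0777) or WT replicate 3 (0.0870).

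The 5 ligands called lower fell by 0.43 to 0.70 on the log2 scale, and in none of them did the groups overlap. Wnt3a, the ligand most used to activate β-catenin in cell culture, had levels of −6.35, −6.09 and −6.15 in AROM+ testes and −5.11, −5.85 and −5.52 in WT testes. Its difference was −0.70 ± 0.19 (adjusted p = 0.0223). The probe was dim, with intensities of 60.1 to 66.8 in AROM+ testes, and normexp background correction gave −0.41, still called (limma adjusted p = 0.0191). The WT testes spread more widely than the AROM+ testes, and WT replicate 1 was the highest. Wnt9b, which induces kidney tubules in the embryo, had levels of −4.18, −4.38 and −4.57 in AROM+ testes and −3.54, −3.99 and −3.59 in WT testes, a difference of −0.67 ± 0.16 (adjusted p = 0.0140). Wnt8a, a ligand of the early embryo, had levels of −3.45, −3.83 and −3.58 in AROM+ testes and −2.90, −3.34 and −2.85 in WT testes, a difference of −0.59 ± 0.17 (adjusted p = 0.0248). WT replicate 2 was the WT testis nearest to the AROM+ values for both of these genes. Wnt8b, known from the developing forebrain, had levels of −5.13, −4.87 and −4.87 in AROM+ testes and −4.15, −4.48 and −4.71 in WT testes, a difference of −0.51 ± 0.16 (adjusted p = 0.0355). Wnt7a, which patterns the limb and the female reproductive tract, had levels of −3.86, −3.75 and −3.83 in AROM+ testes and −3.29, −3.57 and −3.30 in WT testes, a difference of −0.43 ± 0.10 (adjusted p = 0.0156). Each of these 5 falls was under 2-fold, and against the median of all genes they were smaller still, from −0.28 for Wnt7a to −0.56 for Wnt3a.

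All 5 of these calls were lost without at least 1 testis. Without WT replicate 1 the adjusted p was 0.0605 for Wnt7a, 0.0818 for Wnt8a, 0.0917 for Wnt8b and 0.0509 for Wnt9b. Without WT replicate 3 it was 0.0578 for Wnt7a, 0.0824 for Wnt8a, 0.0514 for Wnt9b and 0.0614 for Wnt3a. Without WT replicate 2 the call of Wnt8b was lost as well (0.0723). Among the AROM+ testes, leaving out replicate 1 ended the calls of Wnt3a (0.0614) and Wnt8b (0.0935). Leaving out replicate 2 ended those of Wnt8a (0.0688) and Wnt8b (0.0593), and leaving out replicate 3 also ended those of Wnt8a (0.0505) and Wnt8b (0.0565). The signs did not turn in any of these fits. Each of them holds fewer arrays, and lower calls over all genes also fell, from 6142 to 3935 without WT replicate 1 and 3816 without WT replicate 3.

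Among the 8 ligands tested and not called, differences ran from −0.39 for Wnt1 to 1.06 for Wnt16. Wnt16, a ligand of bone and joint, had the widest spread of them: −3.73, −3.45 and −5.05 in AROM+ testes and −4.89, −5.24 and −5.31 in WT testes. AROM+ replicate 3 fell within the WT range, and the difference of 1.06 ± 0.40 had an adjusted p of 0.0627. Without AROM+ replicate 3 it was 1.55 and called (adjusted p = 0.00526), and it was also called with normexp background correction, an eBayes trend and array weights. Wnt1, the first ligand of the family to be found, lay lower in all AROM+ testes (−0.94, −0.72 and −0.44) than in any WT testis (−0.36, −0.35 and −0.24), and its difference of −0.39 ± 0.14 had an adjusted p of 0.0502. It was called lower in 8 of 19 other settings, 1 of them without AROM+ replicate 3 (−0.52, adjusted p = 0.0169). Wnt3, a ligand of gastrulation, had levels of −5.82, −5.39 and −5.90 in AROM+ testes and −5.51, −5.32 and −5.36 in WT testes, a difference of −0.30 ± 0.15 (adjusted p = 0.131). AROM+ replicate 2 lay within the WT range. Without it the difference was −0.46 and was called (adjusted p = 0.0203). The other 4 beside Wnt4, namely Wnt6, Wnt10b, Wnt11 and Wnt5b, had differences between −0.23 and 0.34.

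Wnt4, the ligand of ovarian development, did not differ by its brighter probe but did by its dimmer one. The brighter probe read −1.80, −2.36 and −2.10 in AROM+ testes and −2.19, −2.14 and −2.14 in WT testes. AROM+ values lay on both sides of the tight WT values, with a difference of 0.07 ± 0.15 (adjusted p = 0.706). A second probe, further along the chromosome, read −1.99, −3.96 and −3.04 in AROM+ testes and −4.85, −4.28 and −4.75 in WT testes. All AROM+ values of that probe lay above the WT values, AROM+ replicate 1 by most, and the difference in a fit over all probes was 1.63 ± 0.46 (adjusted p = 0.0285 over 42637 probes). In that fit 14.1% of all probes were called higher and 30.3% lower. The 2 sequences are shown because the gene's result turns on which of them is read.
Wnt4 brighter probe, chr4:136851690-136852258, plus strand, whole probe of 60 bases over a wider span: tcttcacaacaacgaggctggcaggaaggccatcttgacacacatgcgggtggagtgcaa
Wnt4 dimmer probe, chr4:136855342-136855401, plus strand, first 30 bases: tatgaggctccttggcattgtgacatcccc

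All 12 receptor genes were tested: 6 were called higher, 1 lower and 5 neither, with a median difference of 0.44. Over all genes tested, 19.9% were called higher and 32.6% lower, with a median difference of −0.14. Fzd1, Fzd2 and Fzd7, which form 1 subfamily of closely related Frizzled receptors, were all called higher. Fzd2 read 0.06, −0.07 and −0.29 in AROM+ testes and −3.27, −2.81 and −3.48 in WT testes. The gap between the groups was several times the spread within either, and the difference was 3.09 ± 0.19, or 8.50-fold (adjusted p = 0.00103). Fzd7 read −2.45, −2.45 and −2.37 in AROM+ testes and −3.71, −3.37 and −3.41 in WT testes, a difference of 1.07 ± 0.11 (2.11-fold, adjusted p = 0.00233). Fzd1 read −0.91, −1.20 and −1.08 in AROM+ testes and −2.16, −1.93 and −2.13 in WT testes, a difference of 1.01 ± 0.11 (2.01-fold, adjusted p = 0.00271). For all 3 genes each AROM+ testis lay above each WT testis.

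Fzd4, which also serves norrin in blood vessel growth, and Fzd6, a receptor of planar cell polarity, rose by less. Fzd4 read −2.89, −3.05 and −3.25 in AROM+ testes and −3.86, −3.79 and −4.02 in WT testes, a difference of 0.83 ± 0.12 (1.77-fold, adjusted p = 0.00398). With normexp background correction the difference of Fzd4 was 0.50 and still called (adjusted p = 0.0247). Fzd6 read −2.31, −2.02 and −2.22 in AROM+ testes and −2.68, −2.80 and −2.65 in WT testes, a difference of 0.53 ± 0.10 (1.44-fold, adjusted p = 0.00828). Neither gene's groups overlapped. The remaining Frizzled genes, Fzd3, Fzd5, Fzd8, Fzd9 and Fzd10, had differences between −0.10 and 0.35 and adjusted p-values from 0.0790 to 0.894.

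The 2 co-receptors moved in opposite directions. Lrp6 read 0.47, 0.13 and 0.41 in AROM+ testes and −0.35, −0.24 and −0.45 in WT testes, a difference of 0.68 ± 0.12 (1.61-fold, adjusted p = 0.00577). A second Lrp6 probe gave 0.72 ± 0.14. Lrp5 read 0.75, 0.75 and 0.67 in AROM+ testes and 1.23, 1.35 and 1.12 in WT testes, a difference of −0.51 ± 0.09 (adjusted p = 0.00653). In both genes the groups were apart, with Lrp6 higher and Lrp5 lower in AROM+. Lrp5 was the member called lower whose call held under every other setting that was tried.

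**Figure D2:**
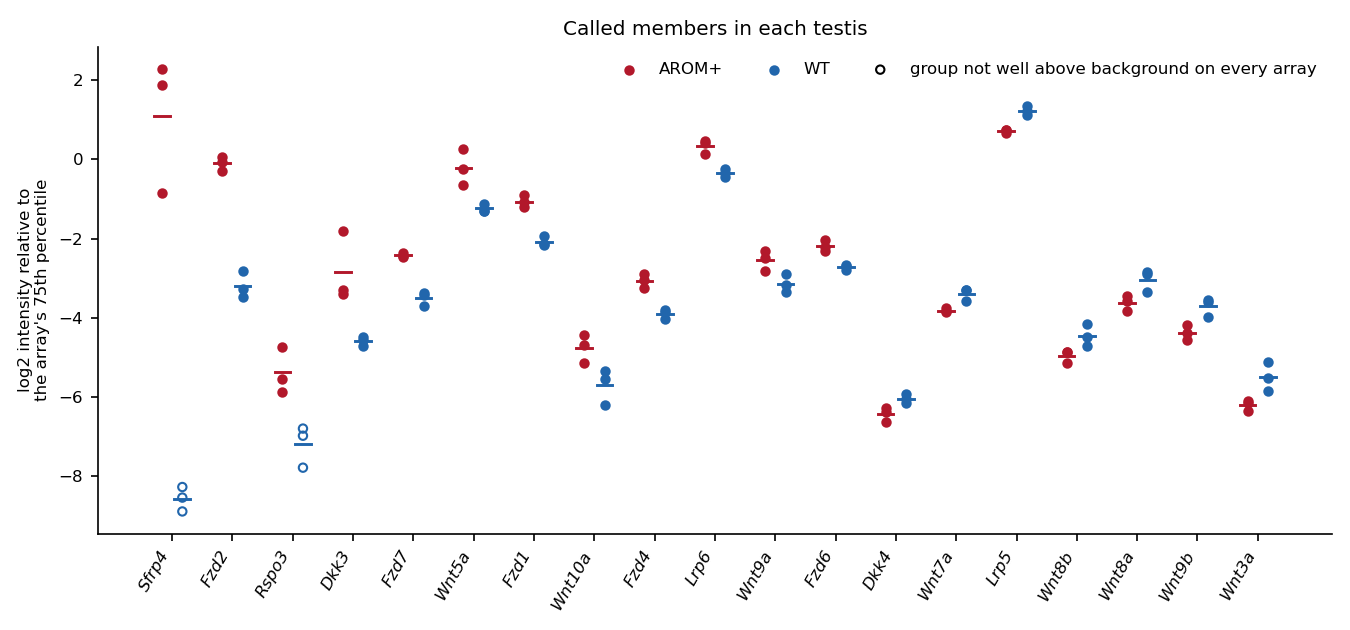
Log2 intensity over each array's 75th percentile (y axis) of the 19 called members in each testis, with AROM+ left of WT and genes ordered from the highest to the lowest difference; horizontal lines are group means. Open circles stand for a group in which the probe was not well above background on every array (Sfrp4, 0 of 3 WT arrays; Rspo3, 1 of 3 WT arrays); AROM+ and WT values do not overlap in any of these genes.

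Of the 40 members tested, 8 had 2 probes. No gene had probes called in opposite directions, but the size or the call differed in several. Fzd2 rose on both probes, by 3.09 on the brighter and by 3.37 ± 0.18 on the dimmer, which was not well above background in any WT testis and read at least 8.62-fold higher in AROM+. For Fzd7 the probes differed widely. The brighter gave 1.07 and the dimmer 3.27 ± 0.20, with −2.80, −3.27 and −3.32 in AROM+ testes and −6.11, −6.35 and −6.74 in WT testes. With the mean of both probes the difference of Fzd7 was 2.17 and called. Each AROM+ testis lay above each WT testis on both Fzd7 probes.

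The dimmer Fzd7 probe resembles the brighter Fzd2 probe. Aligned with an offset of 10 bases, they share 42 of 50 bases (84.0%), the most identical bases of 1423 pairs of member probes from different genes; the next pair shared 29 of 59. The differences of these 2 probes were also alike, 3.27 for Fzd7 and 3.09 for Fzd2, whereas the other Fzd7 probe gave 1.07. Whether RNA of one gene added signal on the probe of the other was not tested. The 2 probes are shown whole, with identical bases in capitals.
Fzd2 brighter probe, chr11:102467613-102467672, plus strand: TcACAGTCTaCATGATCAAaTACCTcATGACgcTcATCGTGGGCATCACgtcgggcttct
Fzd7 dimmer probe, chr1:59541367-59541426, plus strand: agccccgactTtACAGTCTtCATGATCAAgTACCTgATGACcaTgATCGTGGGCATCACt
The other probe of each gene is shown by its first 30 bases, since these are the readings without that resemblance.
Fzd2 dimmer probe, chr11:102469045-102469104, plus strand: cgtgacattctatatcataagatattgata
Fzd7 brighter probe, chr1:59543192-59543251, plus strand: aagggaaggtgaacttcaaagtgattctgg

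For Fzd5, a receptor close to Fzd8, the brighter probe gave −0.10 ± 0.12 and the dimmer 0.57 ± 0.19, the second called higher in the fit over probes (adjusted p = 0.0491). The dimmer probe read −4.80, −5.32 and −4.78 in AROM+ testes and −5.55, −5.78 and −5.28 in WT testes. AROM+ replicate 2 lay below WT replicate 3 on it, so the groups overlapped. The 2 Fzd5 probes are given because only one of them was called.
Fzd5 brighter probe, chr1:64781972-64782030, minus strand, whole probe: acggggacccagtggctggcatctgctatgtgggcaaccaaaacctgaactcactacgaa
Fzd5 dimmer probe, chr1:64779479-64779538, minus strand, first 30 bases: aatttcagtggcttccacaagaccttgtac
Wnt8b was called lower on both probes (−0.51 and −0.79), Wnt1 on neither (−0.39 and −0.13) and Wnt16 on neither (1.06 and −0.17).

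**Figure D3:**
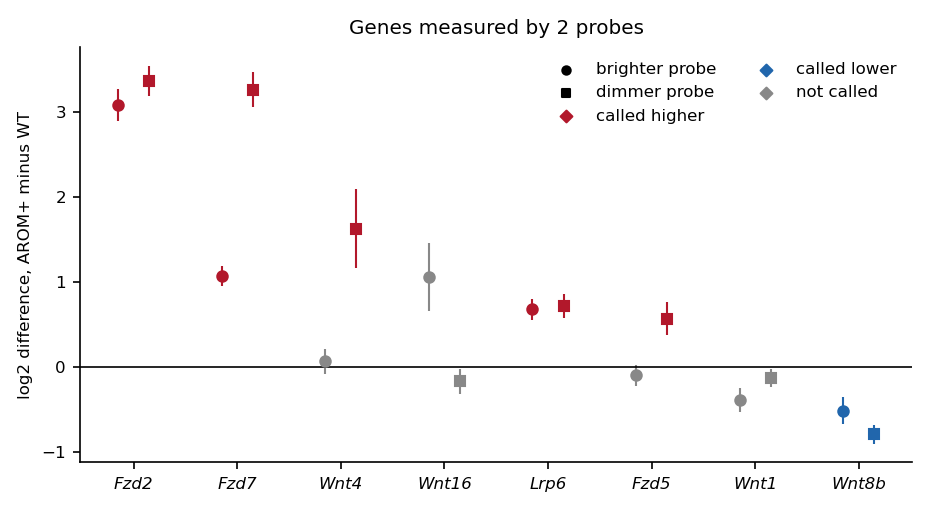
Log2 difference (y axis, AROM+ minus WT) of both probes of the 8 members with 2 probes; circles are the brighter probe, squares the dimmer, bars the SE from limma, and colours the call in the fit over all probes. The probes lie close together for Fzd2 and Lrp6 and well apart for Fzd7, Wnt4 and Wnt16.

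All 5 genes of Frizzled-related proteins were tested: 1 was called higher, 0 lower and 4 neither, against 19.9% higher and 32.6% lower over all genes. Their median difference was 0.37, which stays the same with Sfrp4 at its bound. Sfrp4, a secreted protein with a Frizzled-like ligand-binding domain, had intensities of 26353, 16299 and 2387 in AROM+ testes and 14.6, 7.82 and 11.5 in WT testes. It was well above background in all 3 AROM+ testes and in 0 of 3 WT testes, a pattern found in 0.361% of all genes; the reverse pattern, found in 0.313% of all genes, occurred in 0 members. Its levels were 2.28, 1.87 and −0.84 in AROM+ testes (mean 1.11 ± 1.69, SD, n = 3) and −8.27, −8.88 and −8.53 in WT testes (mean −8.56 ± 0.31, SD, n = 3). Against a floor of the lowest signal of a probe well above background on each WT array, Sfrp4 was at least 278-fold higher in AROM+. That bound was 185-fold without AROM+ replicate 1 and 545-fold without AROM+ replicate 3, and between these without each of the other arrays. AROM+ replicate 3 lay more than 2 units below the other AROM+ testes and still far above every WT testis. The fitted difference, which uses the WT readings below background, was 9.67 ± 0.78 (adjusted p = 0.00166). It was 6.62 with normexp background correction and its offset of 50. The probe, on chr13:19724488-19724547 (plus strand), is shown because it carried the largest difference of the members.
Sfrp4 probe, first 30 bases: cacagttgtctgtgtgcatactgtgtaaga

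Sfrp2, another of these ligand-binding proteins, was likewise lowest in replicate 3 of the AROM+ testes but was not called. Its levels were −0.50, −2.91 and −4.62 in AROM+ testes and −5.29, −5.23 and −4.92 in WT testes. Every AROM+ testis lay above every WT testis, but AROM+ replicate 3 by only a little, and the difference of 2.47 ± 0.93 had an adjusted p of 0.0624. Without AROM+ replicate 3 it was 3.44 and called (adjusted p = 0.0136), and without AROM+ replicate 1 it was 1.39 (adjusted p = 0.0608).

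Frzb, an antagonist first found in cartilage, read −0.66, −0.83 and −0.69 in AROM+ testes and −1.58, −0.96 and −0.77 in WT testes. WT replicate 1 stood below the other WT testes, and the difference of 0.37 ± 0.21 was not called (adjusted p = 0.169). Sfrp1, an antagonist with a wide range of tissues, read −4.06, −4.50 and −4.01 in AROM+ testes and −4.44, −4.58 and −4.43 in WT testes, a difference of 0.29 ± 0.15 (adjusted p = 0.134). AROM+ replicate 2 lay within the WT range, and without it the difference was 0.45 and called. Sfrp5 differed by 0.20 ± 0.14.

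Among the Dickkopf genes and Wif1, 3 of 5 were tested: Dkk3 was called higher, Dkk4 lower and Dkk1 neither. The shares over all genes were 19.9% higher and 32.6% lower. Dkk3, a divergent Dickkopf protein whose action on Wnt signals is debated, read −1.80, −3.41 and −3.29 in AROM+ testes and −4.49, −4.70 and −4.56 in WT testes. AROM+ replicate 1 stood well above the other AROM+ testes, all of them lay above WT, and the difference was 1.75 ± 0.41 (3.36-fold, adjusted p = 0.0137). Without AROM+ replicate 1 it was 1.23 and still called. Its probe lies on chr7:119259556-119259615 (minus strand) and is shown as that of the other strongly raised antagonist.
Dkk3 probe, first 30 bases: gcctgtaaatcgcatctgaagataccacag
Dkk4, which binds Lrp6, read −6.63, −6.28 and −6.38 in AROM+ testes and −6.15, −6.06 and −5.92 in WT testes, a difference of −0.38 ± 0.12 (adjusted p = 0.0346). Its probe was dim, with intensities of 51.3 to 70.2, and AROM+ replicate 1 read close to the lowest signal well above background on its array (−6.69). With normexp background correction the difference of Dkk4 was −0.19 and not called (limma adjusted p = 0.123). The groups did not overlap, yet the call was lost without AROM+ replicate 1 (adjusted p = 0.0771), AROM+ replicate 3 (0.0586), or any of WT replicates 1 (0.0585), 2 (0.0713) and 3 (0.111). Dkk1, the best studied blocker of Lrp6, was well above background in 1 of 3 AROM+ testes and in 3 of 3 WT testes. Its levels were −6.03, −6.81 and −7.48 in AROM+ testes and −6.05, −5.93 and −6.05 in WT testes. AROM+ replicate 1 lay among the WT values while the other AROM+ testes were lower, and the difference of −0.76 ± 0.33 had an adjusted p of 0.0948. Without AROM+ replicate 1 it was −1.13 and called (adjusted p = 0.0121). Wif1, an inhibitor that binds Wnt ligands, was well above background in 2 of 3 AROM+ and 2 of 3 WT testes and was not tested: it read −6.83, −6.75 and −6.30 in AROM+ testes and −6.51, −6.80 and −6.38 in WT testes.

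Dkkl1, a protein related to Dkk3 that is made in spermatocytes and spermatids, read 4.63, 4.43 and 4.58 in AROM+ testes and 4.82, 4.72 and 4.75 in WT testes. All AROM+ values lay below all WT values, by little, and the difference of −0.22 ± 0.09 was not called (adjusted p = 0.0787). It was called lower in 4 other settings: normexp background correction (−0.41), centring on the gene median (−0.32), array weights (−0.29) and an eBayes trend (adjusted p = 0.0264). With quantile normalization it was close to 0 (0.01), and its distance from the median of all genes was −0.07. The spermatid markers, 5 of 8 called lower, had a median difference of −0.39.

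The R-spondins gave 1 higher call among 3 genes tested, against 19.9% of all genes called higher. Rspo3, an R-spondin of blood vessels and placenta, read −4.72, −5.86 and −5.53 in AROM+ testes and −7.78, −6.97 and −6.79 in WT testes. It was well above background in all 3 AROM+ testes and in 1 of 3 WT testes. It thus passed the filter only through AROM+. WT replicates 1 and 2 read under the lowest signal of a probe well above background on their arrays (−6.95 and −6.70). The fitted difference, which uses these WT readings, was 1.81 ± 0.36 (adjusted p = 0.00831). With normexp background correction it was 0.82 and still called (adjusted p = 0.00743). Its probe lies on chr10:29172930-29172989 (minus strand) and is shown as that of the agonist whose level rose.
Rspo3 probe, first 30 bases: ggatactactttctaacaaggtgtatctag
Rspo1, the R-spondin of ovarian development, read −3.74, −4.35 and −3.71 in AROM+ testes and −4.02, −3.77 and −4.28 in WT testes. The ranges overlapped almost fully, with a difference of 0.09 ± 0.21 (adjusted p = 0.743), and its sign turned with centring on the gene median (−0.01). Rspo4 differed by 0.32 ± 0.31.

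Beside Wif1, 5 members did not pass the filter. Dkk2 and Wnt2b were not well above background on any array. Wnt2 and Wnt7b were so in 0 of 3 AROM+ and 1 of 3 WT testes, and Rspo2 in 2 of 3 AROM+ and 1 of 3 WT testes. With no filter on dim probes, Wnt2b was at 1.00 (adjusted p = 0.0453) and Wnt2 at −1.41 (adjusted p = 0.0293), readings that rest on spots near background.

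Some Wnt genes lie next to each other on the chromosomes, and neighbours did not always move together. Wnt3a and Wnt9a, whose probes are 85.3 kb apart on chromosome 11, were called in opposite directions (−0.70 and 0.59). Wnt6 and Wnt10a, 19.1 kb apart on chromosome 1, differed by 0.34 (not called) and 0.94 (higher). For Wnt9b and Wnt3, 90.1 kb apart on chromosome 11, the differences were −0.67 (lower) and −0.30 (not called), and for Wnt10b and Wnt1, 21.0 kb apart on chromosome 15, they were −0.23 and −0.39, neither called.

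The highest and lowest testes were not spread evenly over the called members. Among the 12 called higher, AROM+ replicate 1 was the highest AROM+ testis in 9, replicate 3 in 2 and replicate 2 in 1. In WT, replicate 2 was the highest in 7 of the 12, replicate 1 in 3 and replicate 3 in 2. Among the 7 called lower, AROM+ replicate 1 was the lowest AROM+ testis in 4, replicate 3 in 2 and replicate 2 in 1. The same counts over all genes are not given here. Over all genes tested, AROM+ replicate 1 also correlated least with the WT arrays, at 0.949 to 0.961, against 0.969 to 0.979 for replicate 2 and 0.960 to 0.971 for replicate 3.

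A further 60 genes of the pathway were listed by function, of which 58 were tested. Of these, 16 were called higher, 10 lower and 32 neither, against 19.9% higher and 32.6% lower over all genes. Their median difference was 0.07, against −0.14 over all genes. Lgr5 and Sost did not pass the filter. Those called higher numbered 10 without WT replicate 1, also 10 without WT replicate 3, and 9 with spike-in scaling. Over all genes these settings gave 2607, 2648 and 2462 higher calls, against 3747 in the reported comparison. Of the 2 genes of Wnt secretion, Wls, the carrier that takes Wnt proteins to the cell surface, was called higher. It read −1.22, −1.78 and −2.14 in AROM+ testes and −3.64, −3.52 and −3.73 in WT testes, a difference of 1.92 ± 0.22 (3.78-fold, adjusted p = 0.00282). Porcn, the acyltransferase that attaches the lipid to Wnt proteins, differed by 0.46 ± 0.19 and was not called (adjusted p = 0.0763).

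Among 13 tested co-receptor and receptor turnover genes, 3 were called higher and 2 lower, against 19.9% and 32.6% of all genes. Znrf3, a ubiquitin ligase that removes Frizzled from the surface, was lower by its difference of −0.69 ± 0.10 (adjusted p = 0.00401), and its relative Rnf43 was not called (−0.25 ± 0.16, adjusted p = 0.210). Ror2, a receptor of Wnt5a, differed by 0.59 ± 0.26 (adjusted p = 0.0956). AROM+ replicate 3 of Ror2 was at −2.54, inside the WT range, and the other AROM+ testes were at −1.67 and −1.61. Of 5 tested antagonists of other families, 1 was called lower: Sostdc1, which binds Lrp6, at −0.86 ± 0.10 (adjusted p = 0.00299).

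Of 23 cytoplasmic genes, 5 were called higher and 4 lower, against 19.9% and 32.6% of all genes. Vangl1, a planar cell polarity protein, was at 1.12 ± 0.18 (2.18-fold, adjusted p = 0.00475). Ctnnb1, which encodes β-catenin, read 1.91, 1.91 and 2.09 in AROM+ testes and 1.62 in each WT testis, a difference of 0.35 ± 0.09 (adjusted p = 0.0169). Of 9 nuclear genes, 3 were called higher and 3 lower. Lef1, a partner of β-catenin on DNA, was the lowest of them, with −1.51, −1.30 and −1.69 in AROM+ testes and −0.53, −0.43 and −0.54 in WT testes, a difference of −1.001 ± 0.12 (adjusted p = 0.00282).

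Among 15 tested genes listed as transcriptional targets, 7 were called higher and 2 lower, against 19.9% and 32.6% of all genes. Their median difference was 0.20. The list shares genes with the other classes, and many of its genes also answer to other signals. Axin2, the target most used as a readout of β-catenin, read −4.76, −4.99 and −5.03 in AROM+ testes and −5.39, −5.58 and −5.81 in WT testes, a difference of 0.66 ± 0.14 (1.58-fold, adjusted p = 0.00909). Myc, a growth regulator, was at 2.76 ± 0.32 (6.77-fold, adjusted p = 0.00284), and the cell cycle gene Ccnd1 at 0.95 ± 0.22 (adjusted p = 0.0130). A pair of matrix protein genes once named Wisp were also called higher, Ccn5 at 1.76 ± 0.27 (adjusted p = 0.00445) and Ccn4 at 0.86 ± 0.10 (adjusted p = 0.00285). Lef1 and Znrf3, which are targets too, were the 2 called lower.

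**Figure D4:**
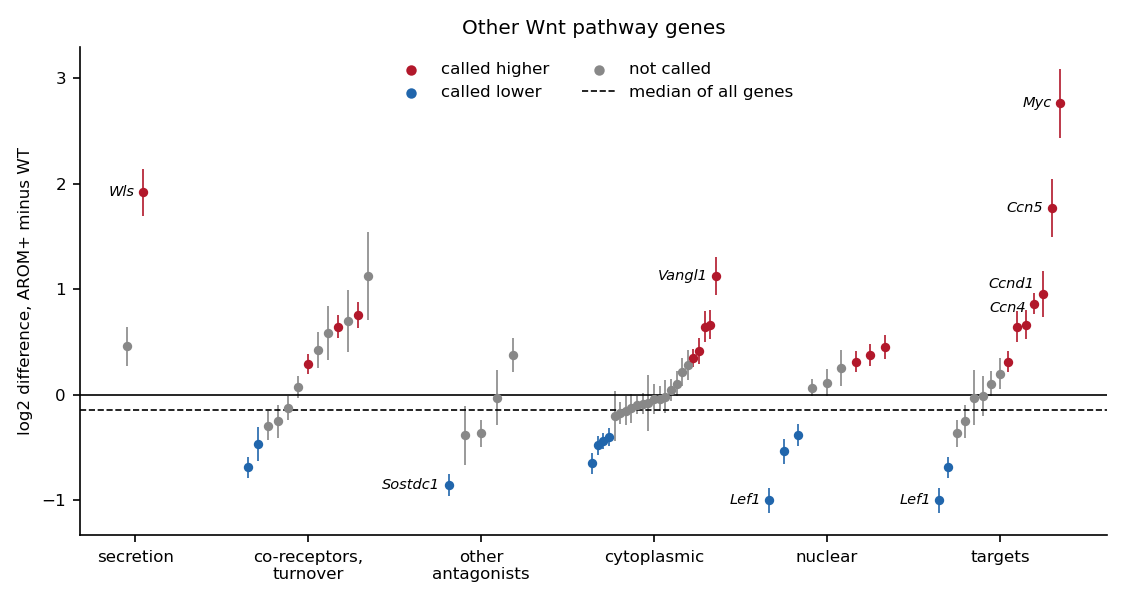
Log2 difference (y axis, AROM+ minus WT) of the 58 tested genes of the pathway that are not members, by function (x axis). Genes run from lowest to highest within a class. Points are limma estimates, bars their SE, and the dashed line is the median of all genes, −0.14. Genes listed in 2 classes, such as Lef1, appear in both; Myc at 2.76 and Wls at 1.92 lie highest and Lef1 at −1.001 lowest.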

How the data were processed

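Whole testes, 3 AROM+ and 3 WT, were measured on one-colour Agilent arrays (Cy3), 1 testis per array, and grouped by the genotype in their labels. The authors deposited scanner output with spot intensities. Its software was Agilent Feature Extraction, for which the file headers give version 10.7.3.1 and the submitters' processing notes 10.10. Per the file headers, the processed signal is an intensity after background subtraction. The authors' deposited series table holds log2 values. It runs with log2 of the processed signal (slope 1.00) with genes not centred, and its column medians were −3.36, −3.38 and −3.34 in AROM+ and −3.41, −3.40 and −3.38 in WT. Log2 of the processed signal lay above it by a median of 12.33, 12.03 and 11.97 in AROM+ and 12.08, 11.79 and 11.99 in WT. How the authors set this constant per array is unknown.

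From the processed intensities, log2 values minus each array's 75th percentile were used. Of 62976 spots per array, 3671 control spots and 123 to 192 with outlier flags were left out; 0 were saturated. Spots of a probe were averaged (55681 probes), and a probe entered the tests if every array of one group or the other had it well above background (42637). Names came from a RefSeq table (GRCm38.p6, with no coordinates taken from it): 26068 matched by accession, 3814 by symbol and 637 by synonym; 702 that list several genes and 24460 without a match were left unnamed. Coordinates and probe sequences are those of the files. A gene was represented by its brightest kept probe. The comparison used lmFit and eBayes of limma 3.58.1 under R 4.3.3, p-values adjusted by Benjamini and Hochberg over all genes, and a call threshold of 0.05. A bound sets the AROM+ mean against, on each dim array, the higher of the lowest signal of any probe well above background and the probe's own signal.

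The members, the other pathway genes and the marker lists were chosen with earlier results of these data known. Members named with full values are those with only a bound, up to 12 called members with the largest rises and up to 8 with the largest falls (12 and 7 were called), any with probes called in opposite directions, and a fixed set (Wnt5a, Wnt4, Wnt3, Sfrp1, Sfrp2, Sfrp4, Dkk3, Dkkl1, Frzb, Wif1, Rspo1, Lrp5, Lrp6); of other pathway genes, the 8 largest called differences and Axin2, Lef1, Ctnnb1, Porcn, Wls, Ror2, Rnf43 and Znrf3. Further values, such as those of Wnt1, Wnt16 and Dkk1, were given after they were seen. The fit was also run on simulated data (18851 genes, 200 changed). It recovered 14%, 56%, 98% and 100% of genes changed by 0.5, 1, 2 and 4 on the log2 scale, with 7 false calls among 141. In the data themselves 52.5% of genes were called, a far larger share than was changed in the simulation. These rates therefore do not carry over to the reported comparison. Other settings tried are named in the closing section. The number of arrays limits the precision.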

Additional observations from a re-analysis of the deposited data

How the results depend on the processing

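Under 19 other settings, 11 of the 19 called members were called with the same sign in every setting that tested them: Dkk3, Fzd1, Fzd2, Fzd4, Fzd6, Fzd7, Lrp5, Lrp6, Rspo3, Sfrp4 and Wnt5a. Rspo3 and Sfrp4, which passed the filter only through AROM+, were tested in 18 of these settings. The setting with only probes above background on all 6 arrays left them out. The members called higher numbered 10 to 16 and those called lower 2 to 10 over all settings. Without each array in turn the ranges were 10 to 14 and 2 to 6. Calls over all genes without each array numbered 2607 to 3586 higher and 3816 to 5451 lower, against 3747 and 6142 with all arrays. For the other pathway genes the ranges without each array were 10 to 18 higher and 8 to 9 lower, and spike-in scaling gave 9 higher. Wnt10a and Wnt9a were not called with spike-in scaling, Wnt8b not with quantile normalization or an eBayes trend, and Dkk4 not with these 2, normexp background correction or array weights. The calls lost without single arrays are given with each gene above. The cause was not tested.

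A change of sign occurred in 6 members, which were called neither in the reported comparison nor with the changed sign. These were Dkkl1 with quantile normalization (0.0107) and Fzd3 with centring on the gene median (−0.079), scaling to bright probes (−0.0014) and spike-in scaling (−0.038), and −0.068 to 0.13 without each array. Fzd9 was at −0.032 with centring and −0.038 to 0.23 without each array. Rspo1 was at −0.011 with centring, −0.036 with array weights and −0.040 to 0.30 without each array. Wnt4 was at −0.03 with centring, −0.003 with array weights and −0.075 to 0.20 without each array. Fzd5 was at 0.24 with the mean of its probes and 0.0052 with array weights. The median over all genes was −0.14, −0.04 with quantile normalization, −0.24 with centring and −0.20 with spike-in scaling.

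Replicate numbers are shared between the groups, but deviations of same-numbered testes correlated at 0.02, −0.24 and 0.0049, so the numbers were not taken to pair the testes. With the replicate number as a block, 11 members were called higher and 5 lower (the calls of Wnt3a, Wnt8b and Wnt9a were lost), and 12 other pathway genes higher and 11 lower. Slide as a block could not be fitted, since all arrays lie on 1 slide. Dim probes limit Wif1, Dkk2, Wnt2, Wnt2b, Wnt7b and Rspo2, which were not tested.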
